A study of Homo sapiens with 6 samples.

Results

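The 34 genes examined here encode enzymes and regulators of cholesterol and fatty acid synthesis, and their transcript levels were compared between HEK293T cells given an adenine base editor and cells given a GFP plasmid. They were chosen by name for their role in these pathways, with earlier results of these data known. Rows of the count table were matched to them by Ensembl ID. All 34 were found among the 62700 IDs of the table, and all 34 were among the 20511 genes that passed the low-count filter and were tested. They fall into 19 enzymes of the sterol pathway, 5 regulators of sterol regulatory element binding proteins (SREBPs), and 10 enzymes of fatty acid synthesis, desaturation, elongation and activation.

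Cholesterol is built from acetyl-CoA through mevalonate, isoprenoid diphosphates, squalene and lanosterol, and fatty acids are built from the same acetyl-CoA through malonyl-CoA. SREBPs are transcription factors held in the endoplasmic reticulum as membrane precursors bound to SCAP. When sterols are scarce, SCAP carries them to the Golgi for cleavage, and the released factor raises transcription of enzymes of both pathways; when sterols are plentiful, INSIG proteins keep SCAP in the endoplasmic reticulum. SREBF2 encodes the form tied mainly to sterol genes, and SREBF1 encodes forms tied more to fatty acid genes.

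All 6 libraries came from HEK293T, a line of human embryonic kidney origin that expresses large T antigen of SV40, and all cells were transfected with plasmid by Lipofectamine 2000. The 3 editor libraries came from cells given a SpRY-ABE8e plasmid, which encodes a Cas9 variant with a relaxed requirement for its target site joined to an adenine deaminase, together with guide RNAs at the splice acceptor and donor of APP exon 17. The 3 GFP libraries came from cells given a plasmid for green fluorescent protein. The study asked, among other things, whether the editor changed gene expression away from its target. The labels give no share of transfected cells and no time after transfection, and they list no library with the editor but without these guides, so editor, guides and plasmid cannot be told apart. In bulk RNA, fewer cells that express a gene and less RNA per cell cannot be told apart.

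The libraries held 110519197 to 152625595 counts. Editor libraries 2 and 3 were close to each other over all genes, with a chi-square of their counts, divided by its degrees of freedom, of 3.16, while other pairs within a group had 31.6 to 175. Principal component 1, which held 40.8% of the variance, placed these libraries on one side and the other 4 on the other side. Mitochondrially encoded genes took 4.62% of the counts in editor library 1, 6.39% and 6.32% in editor libraries 2 and 3, and 3.42% to 4.49% in the GFP libraries. Because editor libraries 2 and 3 stood apart in all genes, values are given for each library below. Of the markers, 4 of 5 epithelial and 2 of 6 kidney genes reached 1 CPM (counts scaled to the library total after TMM correction) in a library. The kidney markers PAX8, LHX1, AQP1 and UMOD stayed under 1 CPM, as did all 4 adipocyte and all 5 hepatocyte markers. Fibroblast markers, 3 of 6 reaching that level, summed to 41.1 to 43.9 CPM in the editor group against 34.2 to 36.8 CPM in the GFP group. Epithelial markers summed to 71.1 to 81.1 CPM against 66.7 to 80.5 CPM, and kidney markers to 50.6 to 68.6 CPM against 39.6 to 62.3 CPM. Every editor library was above every GFP library for 5 of 6 fibroblast, 2 of 5 epithelial (EPCAM and CDH1) and 1 of 6 kidney markers (PAX2). The same held for 8.63% of all genes tested. Overlapping and neighbouring genes were not examined for the markers, so a low count, such as that of LHX1, need not show low expression. The part of these markers in the results below was not tested.

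The promoters of 6 members are printed. SREBF2 and INSIG1 carry letters known to bind SREBPs. HMGCS1, IDI1, MSMO1 and SREBF1 are among the members that varied widely between libraries. Others that did so, such as ACACA and SQLE, are not printed. Each sequence runs 5′ to 3′ on the gene's strand, from 250 bases before to 50 after the transcript start, from RefSeq on GRCh38.p14. Capitals mark the sterol regulatory element TCACNCCAC, the E-box form TCACGTGA, and CCAAT, the site of the factor NF-Y that acts beside SREBPs, each on either strand (ATTGG is CCAAT on the other strand). The windows are chr22:41832855-41833154 (+) for SREBF2, chr7:155297628-155297927 (+) for INSIG1, chr5:43313363-43313662 (-) for HMGCS1, chr10:1048837-1049136 (-) for IDI1, chr4:165327419-165327718 (+) for MSMO1 and chr17:17836937-17837236 (-) for SREBF1.
SREBF2: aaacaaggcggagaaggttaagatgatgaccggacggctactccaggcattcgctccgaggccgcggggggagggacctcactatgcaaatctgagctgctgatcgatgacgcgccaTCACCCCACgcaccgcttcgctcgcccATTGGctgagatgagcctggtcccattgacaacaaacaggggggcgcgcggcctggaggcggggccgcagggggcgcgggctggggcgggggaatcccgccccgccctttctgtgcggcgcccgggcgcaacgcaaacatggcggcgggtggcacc
INSIG1: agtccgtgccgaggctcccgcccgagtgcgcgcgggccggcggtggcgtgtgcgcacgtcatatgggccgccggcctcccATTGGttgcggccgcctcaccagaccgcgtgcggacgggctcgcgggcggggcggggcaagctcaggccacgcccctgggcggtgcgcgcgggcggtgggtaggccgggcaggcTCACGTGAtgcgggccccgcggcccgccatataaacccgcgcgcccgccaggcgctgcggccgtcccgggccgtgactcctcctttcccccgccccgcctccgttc
HMGCS1: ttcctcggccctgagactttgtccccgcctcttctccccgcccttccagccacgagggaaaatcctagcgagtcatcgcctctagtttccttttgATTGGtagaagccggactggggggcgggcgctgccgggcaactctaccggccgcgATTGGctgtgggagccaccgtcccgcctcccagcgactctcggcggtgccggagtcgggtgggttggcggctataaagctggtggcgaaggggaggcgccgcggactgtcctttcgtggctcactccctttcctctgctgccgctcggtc
IDI1: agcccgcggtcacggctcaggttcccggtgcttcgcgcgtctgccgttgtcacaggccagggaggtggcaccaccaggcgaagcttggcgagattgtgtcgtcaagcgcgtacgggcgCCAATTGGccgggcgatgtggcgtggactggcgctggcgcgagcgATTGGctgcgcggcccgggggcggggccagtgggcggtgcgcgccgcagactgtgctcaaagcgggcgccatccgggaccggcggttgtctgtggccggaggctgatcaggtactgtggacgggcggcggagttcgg
MSMO1: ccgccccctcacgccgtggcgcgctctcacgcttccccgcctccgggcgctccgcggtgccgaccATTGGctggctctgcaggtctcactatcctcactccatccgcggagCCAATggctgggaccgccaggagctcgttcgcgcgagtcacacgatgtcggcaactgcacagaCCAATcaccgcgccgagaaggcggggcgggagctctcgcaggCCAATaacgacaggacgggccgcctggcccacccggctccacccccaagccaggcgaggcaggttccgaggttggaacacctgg
SREBF1: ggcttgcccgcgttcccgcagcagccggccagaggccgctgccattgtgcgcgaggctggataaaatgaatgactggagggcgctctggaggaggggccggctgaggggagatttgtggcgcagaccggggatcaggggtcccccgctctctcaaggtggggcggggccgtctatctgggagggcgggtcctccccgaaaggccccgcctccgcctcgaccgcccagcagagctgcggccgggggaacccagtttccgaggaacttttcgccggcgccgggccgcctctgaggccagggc

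Promoter windows were at hand for 30 of the 34 members, with none for ACAT2, FDFT1, SQLE and FASN. Only SREBF2 among these 30 held TCACNCCAC in its window, against 1.39% of the 27305 genes with a window. Only INSIG1 held TCACGTGA, whose other strand reads the same, against 1.18% of genes. CCAAT lay in the windows of 24 of the 30, against 39.7% of genes, and the GC box GGGCGG in 28 of the 30, against 48.3% of genes. By group, CCAAT was found in 14 of 16 sterol enzymes, 3 of 5 regulators and 7 of 9 fatty acid enzymes. MSMO1 held CCAAT at 4 places, IDI1 at 3, HMGCS1 at 2, and SREBF1 at none, and where CCAAT and ATTGG overlap, as in IDI1, both were counted. These matches are a description of letters in the windows and show no binding. Only these exact letters were sought, so the absence of a match does not show that a window lacks an SREBP site.

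Levels in the GFP libraries, as CPM per kilobase of exon, spanned a wide range. SCD, the desaturase that makes oleic acid, stood highest at 389 CPM per kilobase, followed by SQLE, squalene epoxidase, at 154 and INSIG1 at 145. ACLY, which makes cytosolic acetyl-CoA from citrate, came next at 94.7, and SREBF2 was at 41.3. At the low end were MVK, mevalonate kinase, at 1.65, CYP51A1, lanosterol demethylase, at 1.24, SREBF1 at 0.892 and LSS, lanosterol synthase, at 0.476. ACACA, acetyl-CoA carboxylase, was counted at 0.0972, but its count cannot be read as its expression, as set out below. The count of CYP51A1 is also uncertain, for reasons given below, so its place at the low end may not be its true level. Of the 33 neighbouring pairs in this order, 20 overlapped in their GFP libraries, SQLE with INSIG1 among them, so the order within such pairs lies within their spread.

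**Figure D1:**
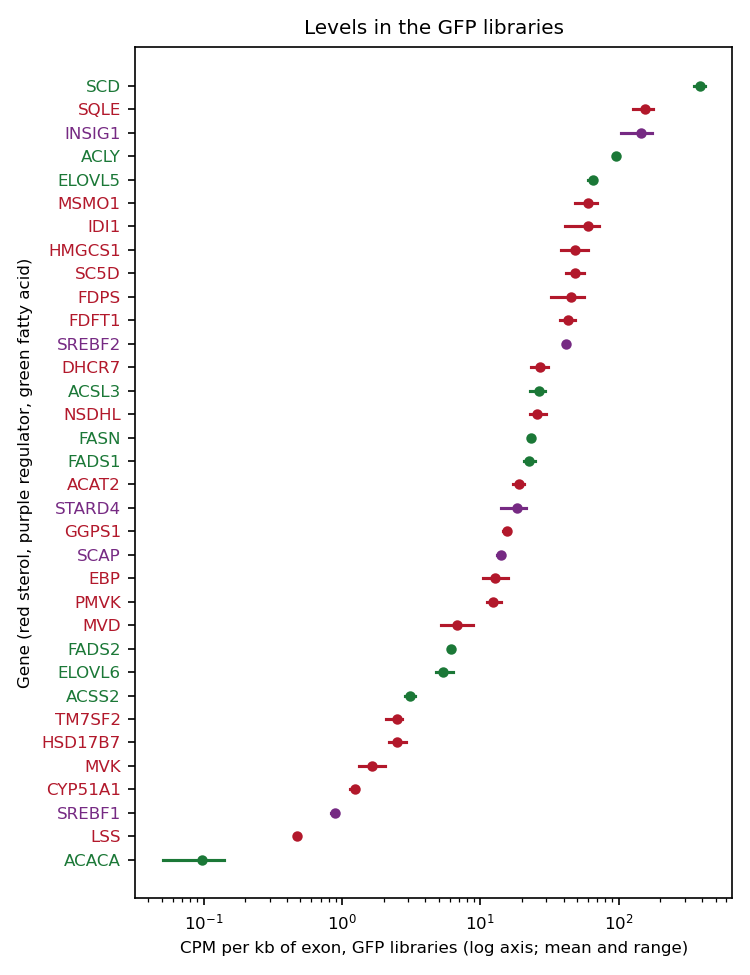
Level of each member in the 3 GFP libraries, as CPM per kilobase of exon on a log axis, with points at the mean and lines from the lowest to the highest library. SCD is at 389 and LSS at 0.476, with most neighbours overlapping. ACACA is drawn at 0.0972, a count that cannot be read as its expression, and the count of CYP51A1 is uncertain.

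Between editor and GFP libraries, 0 of the 34 members passed an adjusted p of 0.05 in either direction by the edgeR quasi-likelihood test with Benjamini-Hochberg adjustment. Over all genes tested, 0.0244% passed as higher in the editor libraries (5 genes) and 0% as lower. At an unadjusted p under 0.05, 1 member was higher, SREBF1, and 0 were lower, against 6.1% of all genes higher and 2.57% lower. The groups did not overlap for 0 members on the higher side (8.63% of all genes) and for 2 on the lower side (6.12%), SCAP and ACSS2. An exact permutation test of 3 against 3 libraries cannot go below p = 0.1.

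**Figure D2:**
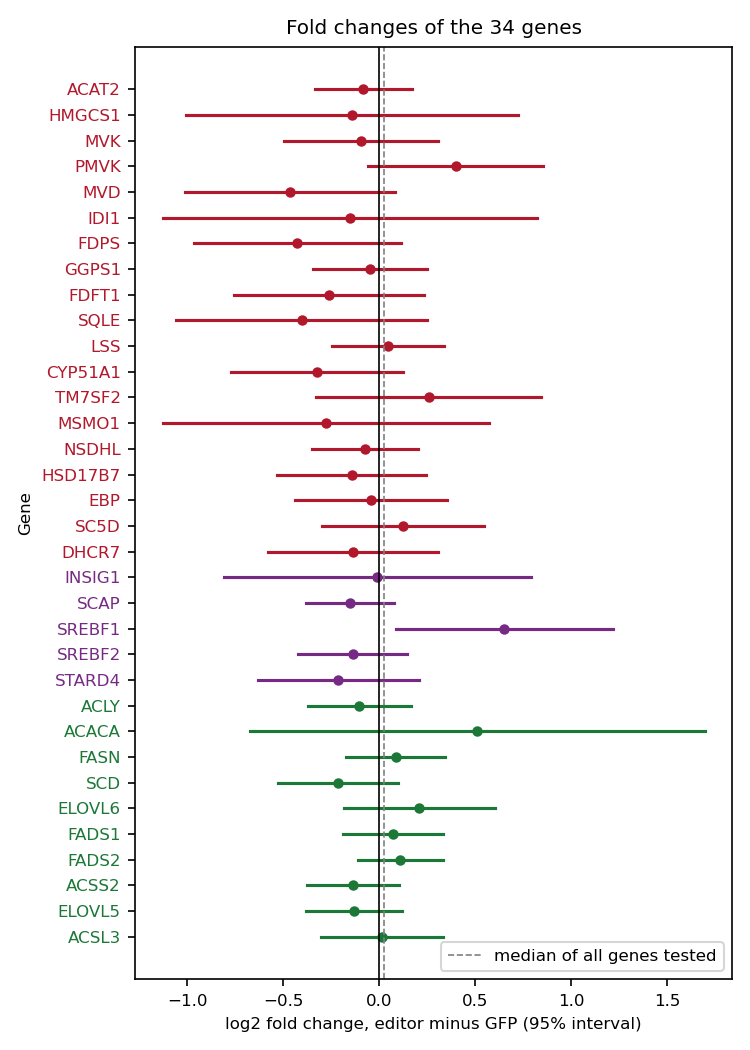
Log2 fold change of each member, editor minus GFP, with its 95% interval from the edgeR fit; red marks sterol enzymes, purple SREBP regulators, green fatty acid enzymes, and the dashed line the median of all genes tested. SREBF1, at 0.65, is the only member whose interval lies on one side of 0.

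The fold change was below 0 for 15 of 19 sterol enzymes, with a median of -0.14, for 4 of 5 regulators, with a median of -0.14, and for 4 of 10 fatty acid enzymes, with a median of 0.04 (4 of 9 and 0.02 with ACACA, whose count is doubtful, left out). Over all genes tested, 45.7% were below 0 and the median was 0.02. The median SD of log2 CPM across the sterol enzymes was 0.38 in the editor libraries and 0.21 in the GFP libraries, against 0.18 and 0.20 over all genes tested. For the regulators it was 0.26 and 0.088, and for the fatty acid enzymes 0.16 and 0.12. No test of one group of genes against another was made.

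In the early sterol pathway, the widest spread lay within the editor group. HMGCS1, which joins acetyl-CoA and acetoacetyl-CoA into HMG-CoA (chr5:43289395-43313512, minus strand, GRCh38), stood at 362, 128 and 131 CPM in editor libraries 1 to 3 and at 223, 179 and 284 CPM in GFP libraries 1 to 3. Editor library 1 was the highest of all and editor libraries 2 and 3 the lowest, on both sides of the GFP range. Its log2 fold change was -0.14 (SE 0.38, 95% interval -1.01 to 0.72), with an edgeR adjusted p of 0.937. IDI1, isopentenyl diphosphate isomerase (chr10:1039152-1049170, minus strand), whose library values lie outside the rule for named genes and were picked after they were seen, had the same order, with 429, 135 and 141 CPM in the editor libraries against 290, 178 and 315 CPM with GFP. Its log2 fold change was -0.15 (SE 0.43, edgeR adjusted p = 0.941). The lower bounds of both intervals, -1.01 and -1.12, lie below -1, so a difference of -1 lies within both.

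Between them in the pathway, PMVK, phosphomevalonate kinase, ran the other way, with 14.4, 24.3 and 24.0 CPM in the editor libraries against 18.1, 15.3 and 14.2 CPM with GFP. Editor libraries 2 and 3 were above all GFP libraries and editor library 1 lay within them. Its log2 fold change of 0.40 (SE 0.20, edgeR adjusted p = 0.613) had the smallest unadjusted p of the sterol enzymes, 0.0786. MVD, the decarboxylase that forms isopentenyl diphosphate, stood at 31.3, 19.4 and 19.0 CPM in the editor libraries against 41.8, 24.4 and 30.02 CPM in the GFP libraries. FDPS, farnesyl diphosphate synthase, stood at 165, 103 and 104 CPM against 208, 120 and 172 CPM. For both, editor libraries 2 and 3 were below every GFP library while editor library 1 lay among them. The log2 fold changes were -0.47 (SE 0.24) for MVD and -0.43 (SE 0.24) for FDPS, with edgeR adjusted p of 0.624 and 0.644.

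Later in the pathway, SQLE, the epoxidase that readies squalene for ring closure and a control point of the pathway, stood at 777, 362 and 368 CPM in the editor libraries and at 689, 542 and 763 CPM in the GFP libraries. Editor library 1 was again the highest and editor libraries 2 and 3 the lowest. SQLE had a log2 fold change of -0.40 (SE 0.29, 95% interval -1.06 to 0.25, edgeR adjusted p = 0.712). MSMO1, the methylsterol oxidase (chr4:165327623-165343160, plus strand), also named after its values were seen, stood at 251, 88.3 and 90.5 CPM against 180, 141 and 201 CPM, with the same libraries highest and lowest as for SQLE. Its log2 fold change was -0.28 (SE 0.37, edgeR adjusted p = 0.867). CYP51A1 stood at 4.70, 3.05 and 2.92 CPM against 4.09, 4.68 and 4.57 CPM, with a log2 fold change of -0.32 (SE 0.20, edgeR adjusted p = 0.662). Its count is uncertain, since in GENCODE release 29 a gene on the same strand covers 79.4% of its exons, and its processed pseudogenes CYP51A1P1 and CYP51A1P2 held 1445 and 1575 reads over the 6 libraries against 3030 for CYP51A1.

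**Figure D3:**
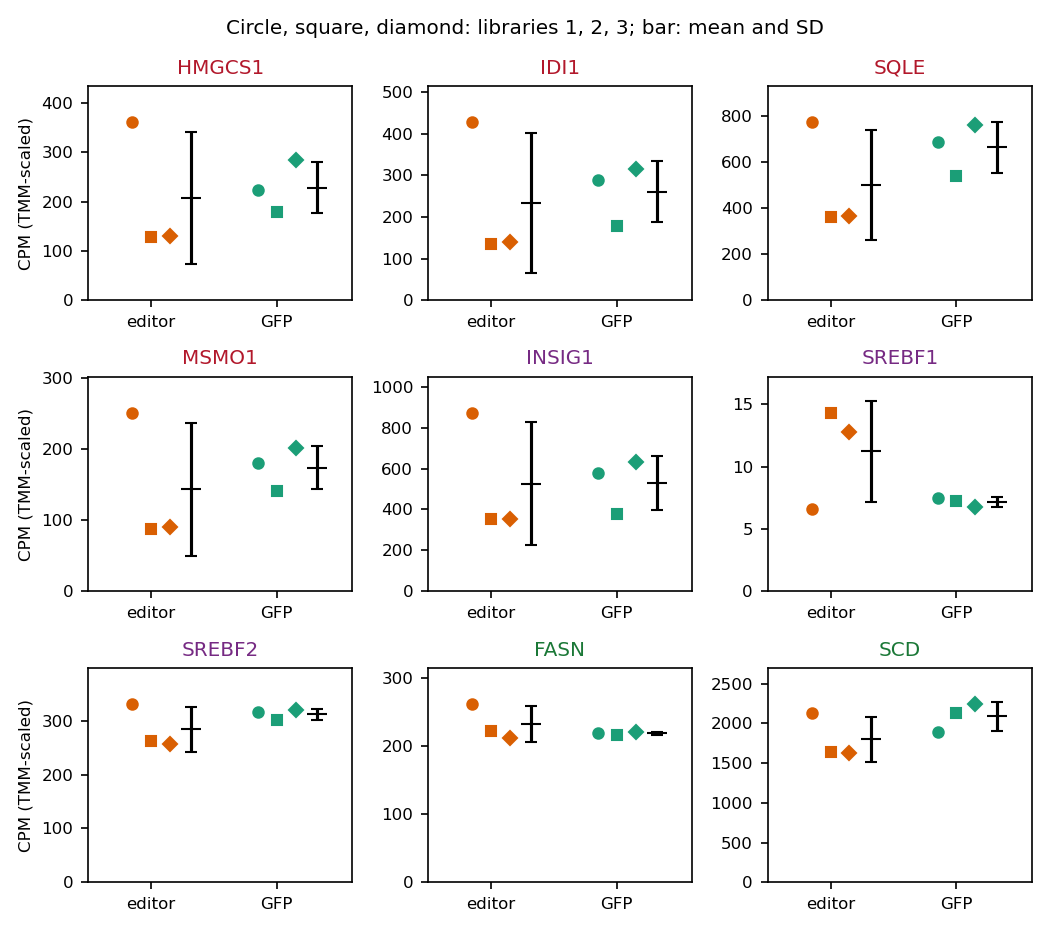
CPM, scaled by TMM, of 9 members in each library, with circles, squares and diamonds for libraries 1, 2 and 3 and a bar for the mean and SD of each group. HMGCS1, IDI1, SQLE, MSMO1 and INSIG1 are highest in editor library 1 and lowest in editor libraries 2 and 3, and SREBF1 has the reverse order in the editor group.

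The other 11 sterol enzymes had log2 fold changes from -0.26 to 0.26, with edgeR adjusted p of at least 0.76. FDFT1, squalene synthase, averaged 188 ± 63.8 CPM in the editor group against 225 ± 28.3 CPM in the GFP group (SD, n = 3 each), and its log2 fold change was -0.26. TM7SF2, a sterol reductase, had the largest positive value of these, 0.26, with 6.05, 12.3 and 12.4 CPM in the editor libraries against 9.29, 9.33 and 7.11 CPM with GFP. Like PMVK, it was above all GFP libraries in editor libraries 2 and 3 and, unlike PMVK, below all of them in editor library 1. SC5D, the sterol desaturase, averaged 292 ± 73.4 CPM against 268 ± 39.3 CPM, a log2 fold change of 0.12. DHCR7, which makes cholesterol from dehydrocholesterol, averaged 103 ± 28.96 CPM against 113 ± 15.9 CPM.

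LSS had the narrowest range of the sterol enzymes relative to its level, with 3.44, 3.74 and 3.47 CPM in the editor libraries against 3.48, 3.43 and 3.42 CPM with GFP. ACAT2, the first thiolase of the pathway, averaged 77.4 ± 4.77 CPM against 81.9 ± 7.66 CPM, and GGPS1, which makes geranylgeranyl diphosphate, 57.3 ± 9.47 CPM against 59.1 ± 3.13 CPM. NSDHL and EBP, a dehydrogenase and an isomerase of the late pathway, averaged 48.6 ± 2.73 CPM against 51.2 ± 7.05 CPM and 29.9 ± 5.17 CPM against 30.8 ± 6.47 CPM. HSD17B7, a reductase of the same steps, averaged 10.8 ± 2.22 CPM against 11.9 ± 1.76 CPM, and MVK 10.002 ± 1.26 CPM against 10.7 ± 2.42 CPM. In each of these 7 genes the means of the groups differed by less than the larger SD.

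Among the regulators, SREBF1 (chr17:17810399-17837002, minus strand, GRCh38) had the smallest unadjusted p of all members, 0.0284. It stood at 6.64, 14.3 and 12.8 CPM in the editor libraries and at 7.495, 7.23 and 6.75 CPM in the GFP libraries. Editor libraries 2 and 3 were well above the GFP libraries, and editor library 1 was below all of them. SREBF1 had a log2 fold change of 0.65 (SE 0.25, 95% interval 0.09 to 1.22, edgeR adjusted p = 0.529), which does not pass over all genes. SREBF1 has 708 to 2032 reads a library, and in GENCODE release 29 RAI1 on the other strand covers 6.92% of its exons. A count per gene does not tell the transcripts of its 1a and 1c forms apart.

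SREBF2 (chr22:41833079-41907308, plus strand) stood at 331, 262 and 257 CPM in the editor libraries and at 316, 300 and 320 CPM in the GFP libraries. Editor libraries 2 and 3 were below and editor library 1 above the GFP libraries, the reverse of SREBF1. The fitted log2 fold change was -0.14 (SE 0.13, 95% interval -0.42 to 0.15, edgeR adjusted p = 0.785). INSIG1, which is itself raised by SREBPs (chr7:155297776-155310235, plus strand), stood at 872, 351 and 353 CPM against 578, 378 and 633 CPM. Its editor libraries enclosed the GFP range, and its log2 fold change was -0.01 (SE 0.35, 95% interval -0.81 to 0.79, edgeR adjusted p = 0.995).

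SCAP, the escort of the SREBPs, stood at 77.7, 84.1 and 84.0 CPM in the editor libraries and at 95.7, 92.4 and 85.0 CPM in the GFP libraries. All 3 editor libraries lay below the GFP libraries, by a narrow margin. Its log2 fold change was -0.15 (SE 0.10, edgeR adjusted p = 0.69). STARD4, which carries sterol between membranes, stood at 111, 81.2 and 80.5 CPM against 80.7, 113 and 122 CPM, so the groups overlapped. STARD4 had a log2 fold change of -0.21 (SE 0.18, edgeR adjusted p = 0.769).

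Among the fatty acid enzymes, SCD, the most abundant member, stood at 2128, 1643 and 1620 CPM in the editor libraries and at 1886, 2125 and 2246 CPM in the GFP libraries. Editor libraries 2 and 3 were below the GFP libraries and editor library 1 lay within them. For SCD the fitted log2 fold change was -0.21 (SE 0.14, 95% interval -0.53 to 0.10, edgeR adjusted p = 0.677). FASN, the multienzyme that makes palmitate, stood at 262, 222 and 212 CPM against 219, 216 and 220 CPM, with a log2 fold change of 0.09 (SE 0.11, 95% interval -0.17 to 0.34, edgeR adjusted p = 0.863).

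ACSS2, which makes acetyl-CoA from acetate, stood at 15.2, 15.2 and 15.1 CPM in the editor libraries and at 18.01, 15.3 and 16.7 CPM in the GFP libraries. The editor libraries lay just below the lowest GFP library, with a log2 fold change of -0.13 (SE 0.11, edgeR adjusted p = 0.744). ELOVL6, the elongase of palmitate, stood at 57.5, 39.7 and 39.4 CPM against 37.6, 34.6 and 45.9 CPM, and ELOVL5, an elongase of polyunsaturated fatty acids, at 247, 213 and 215 CPM against 230, 252 and 257 CPM. Editor library 1 was the highest library for ELOVL6 and within the GFP range for ELOVL5, and their log2 fold changes were 0.21 (SE 0.17) and -0.13 (SE 0.11), with edgeR adjusted p of 0.759 and 0.764. ACLY, FADS1, FADS2 and ACSL3, which supplies activated long-chain fatty acids, had log2 fold changes of -0.10, 0.07, 0.11 and 0.02, with edgeR adjusted p of at least 0.78. FADS1 and FADS2, the desaturases of polyunsaturated fatty acids, averaged 242 ± 19.0 CPM against 231 ± 19.8 CPM and 72.6 ± 3.24 CPM against 67.2 ± 3.37 CPM (SD, n = 3 each). ACLY averaged 460 ± 54.2 CPM against 494 ± 26.0 CPM, and ACSL3 195 ± 25.6 CPM against 193 ± 25.4 CPM.

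The count of ACACA, the enzyme that commits acetyl-CoA to fatty acids, cannot be read as its expression. It held 77 to 442 reads a library, 2.03, 0.592 and 2.77 CPM in the editor libraries against 1.29, 0.658 and 1.84 CPM with GFP. Its level in editor library 2 was 0.213 times that in editor library 3, whereas the other 33 members lay between 0.964 and 1.12 times. Of the 16 protein-coding genes nearest to ACACA on chromosome 17, 15 averaged under 100 reads a library, against at most 11 of 16 around any other member. The cause of the low counts in this stretch was not tested, and its log2 fold change of 0.51 (SE 0.52) carries no statement about ACACA.

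The ratio of editor library 1 to editor libraries 2 and 3 varied between the groups of genes. Editor library 1 held 3.11 times the mean of editor libraries 2 and 3 for IDI1, 2.81 times for MSMO1, 2.79 times for HMGCS1, 2.48 times for INSIG1 and 2.13 times for SQLE. At least 2 times was reached by 4 of 19 sterol enzymes, 1 of 5 regulators and 0 of 10 fatty acid enzymes, against 1.1% of all genes tested. At least 1.5 times was reached by 10 of 19, 1 of 5 and 0 of 10, against 5.14% of all genes. TM7SF2 and SREBF1 lay at or below 0.5 times, as did 6.43% of all genes. Since these libraries carry 1 label and stood apart in all genes, the ratios are values of 3 libraries with no test.

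**Figure D4:**
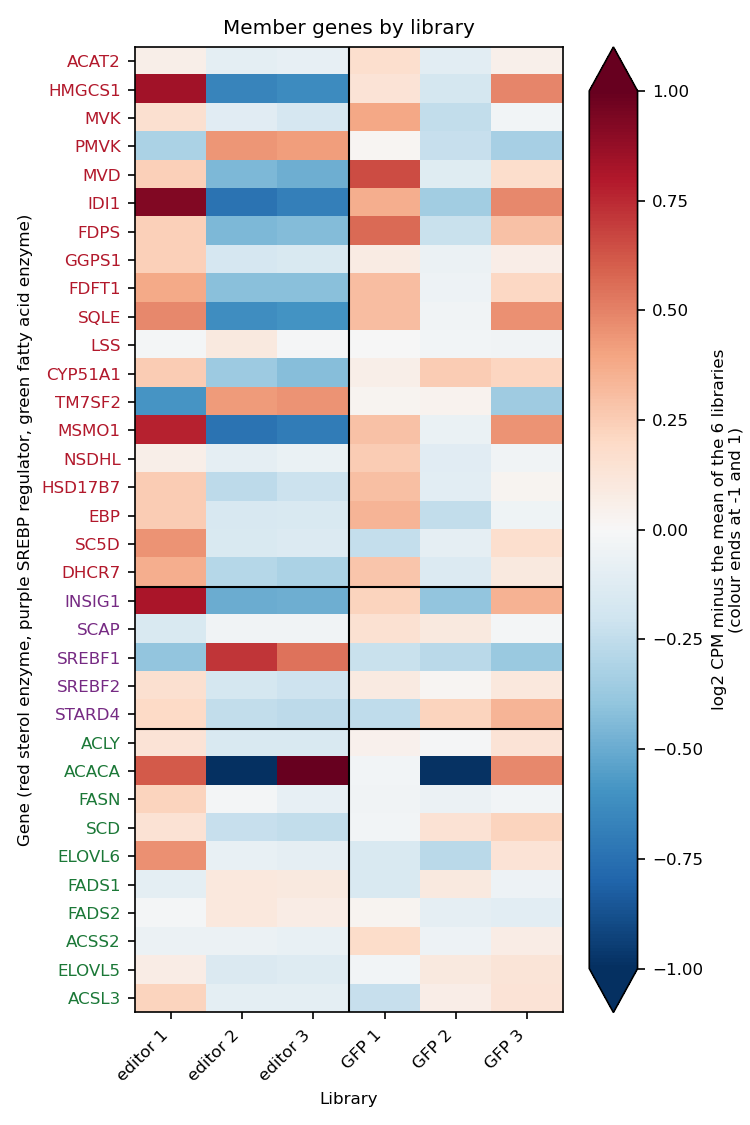
Log2 CPM of each member in each library minus its mean over the 6 libraries, in colour from -1 to 1 with values beyond drawn at the ends; lines part the groups of libraries and of genes. Sterol enzymes are mostly above their mean in editor library 1 (16 of 19) and below it in editor libraries 2 and 3 (16 and 17 of 19).

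Editor libraries 2 and 3 were both below every other library for 11 of 19 sterol enzymes, 2 of 5 regulators and 3 of 10 fatty acid enzymes, against 14.8% of all genes tested. They were both above every other library for PMVK, TM7SF2, SREBF1, FADS1 and FADS2, and for 22.9% of all genes. The GFP libraries also differed, and GFP library 2 was the lowest of its group for 14 of 19 sterol enzymes, against 34.2% of all genes. Summed over the sterol enzymes, the libraries held 3081, 1584 and 1602 CPM in the editor group and 2552, 1986 and 2692 CPM in the GFP group. The sums of the regulators were 1399, 793 and 787 CPM against 1078, 890 and 1166 CPM, and those of the fatty acid enzymes 3749, 3072 and 3040 CPM against 3330, 3634 and 3816 CPM. INSIG1 made up 872 of the 1399 CPM of the regulators in editor library 1, and SCD 1643 of the 3072 CPM of the fatty acid enzymes in editor library 2. In all 3 sums editor libraries 2 and 3 were the lowest, and editor library 1 was the highest for sterol enzymes and regulators. The mitochondrial share of counts was higher in these same libraries 2 and 3, as given above, and its part in these values was not tested.

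**Figure D5:**
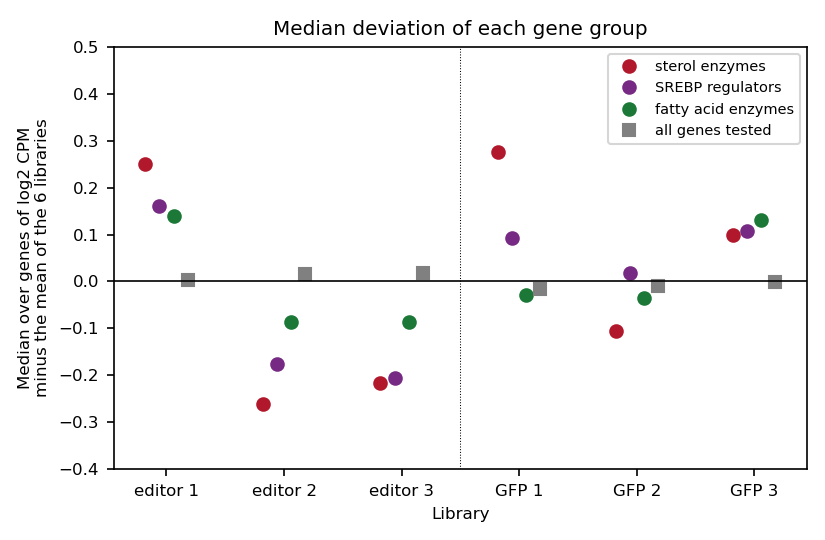
Median over genes of log2 CPM minus the gene's mean over the 6 libraries, for the sterol enzymes, SREBP regulators, fatty acid enzymes and all genes tested, by library. The sterol enzymes are at 0.25 in editor library 1, -0.26 and -0.22 in editor libraries 2 and 3, and 0.28, -0.10 and 0.10 in the GFP libraries, while all genes stay within 0.02 of 0.

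The comparison was repeated with each library left out. Without editor library 1, SREBF1 passed as higher, with a log2 fold change of 0.90 (edgeR adjusted p = 0.0362), and MSMO1 as lower, with -0.98 (edgeR adjusted p = 0.0469), against 0.748% and 0.254% of all genes tested. SQLE had -0.89, with an edgeR adjusted p that rounds to 0.05 and did not pass, HMGCS1 -0.84 (edgeR adjusted p = 0.071) and IDI1 -0.94 (edgeR adjusted p = 0.0845). The medians were then -0.35 for the sterol enzymes, -0.28 for the regulators and -0.08 for the fatty acid enzymes, with 0.01 over all genes. This fit compares editor libraries 2 and 3, which were close to each other in all genes, with the GFP libraries. Without editor library 2 or editor library 3, 0 members passed and the sterol median was -0.03.

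Of the fits over all libraries, that without a low-count filter called SREBF1 higher at 0.59 (edgeR adjusted p = 0.0297) and MVD lower at -0.51 (edgeR adjusted p = 0.0404), against 0.401% and 0.29% of the 44415 genes in that fit. Its SE was 0.15 for INSIG1 and 0.15 for IDI1, against 0.35 and 0.43 with the filter. For the steadier FADS2 it was 0.14, against 0.098 with the filter. The SEs of widely and narrowly spread members were thus close, so these calls rest little on each gene's own spread. DESeq2 called 0 members, against 0.229% of its genes higher and 0.156% lower. In the authors' deposited table all 34 members are listed, 0 with an adjusted p at or below 0.05, and their adjusted p run from 0.665 to 0.977. SREBF1 has a log2 fold change of 0.61 and an adjusted p of 0.665 in the authors' deposited table.

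Of the further pathway genes, in 5 lists, 0 passed over all genes by edgeR, against 0.0244% of all genes tested as higher and 0% as lower. The genes named here were picked by the smallest p of their lists, so groups without overlap come partly from that choice. Over all genes tested, the groups did not overlap for 8.63% on the higher and 6.12% on the lower side. Of the isoprenoid branches, which attach prenyl groups to proteins and build coenzyme Q and dolichol, 7 of 13 were below 0, with a median of -0.04. RABGGTB, a subunit of the Rab prenyltransferase, stood at 126, 122 and 123 CPM in the editor libraries against 151, 150.5 and 148 CPM with GFP, a log2 fold change of -0.28 (SE 0.09, edgeR adjusted p = 0.519). Here all editor libraries, library 1 included, lay below the GFP libraries. FNTA, a subunit of farnesyltransferase, had -0.21 (SE 0.12). Of the sterol sensing and handling genes, 10 of 13 were below 0, with a median of -0.10. INSIG2, the second INSIG protein, stood at 60.0, 57.0 and 57.6 CPM against 64.4, 80.5 and 73.6 CPM, a log2 fold change of -0.32 (SE 0.11, edgeR adjusted p = 0.519), with every editor library below the GFP libraries.

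Of the genes of fatty acid elongation and activation, 19 of 21 were tested and 9 were below 0, with a median of 0.01. SLC25A1, which exports the citrate that ACLY uses, stood at 90.6, 86.1 and 87.4 CPM in the editor libraries and at 139, 102 and 104 CPM in the GFP libraries. The editor libraries lay together below the GFP libraries, of which library 1 was the highest, and the log2 fold change was -0.38 (SE 0.14, edgeR adjusted p = 0.528). ACACB, the acetyl-CoA carboxylase bound to mitochondria, had -0.19 (SE 0.11). Mitochondrial fatty acid synthesis had 1 of 4 below 0 and a median of 0.03, with MECR at 0.19 (SE 0.20) and CBR4 at -0.09 (SE 0.17). LXRs are receptors that sense oxysterols and raise SREBF1 among other targets, and of the 6 genes listed as LXR receptors and targets, 3 were below 0, with a median of 0.05. ABCG1, an LXR target that exports sterol, stood at 15.7, 13.1 and 12.7 CPM against 10.2, 9.65 and 10.03 CPM, all editor libraries above the GFP libraries, with a log2 fold change of 0.47 (SE 0.12, edgeR adjusted p = 0.458). NR1H2, one of the LXR receptors, had -0.34 (SE 0.16).

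Some counts may include reads of other genes or lack reads shared with them. This could not be settled, since the strand setting and the handling of multi-mapped reads were not given in the sources used here. In GENCODE release 29, TBCE on the same strand covers 37.3% of the exons of GGPS1. On the other strand, SOD2 covers 26.5% and TCP1 9.23% of those of ACAT2, MMAB 4.72% of those of MVK, and FADS2 4.79% of those of FADS1. The processed pseudogene FDPSP1 held 1235 reads against 110247 for FDPS, and SCDP1 held 0.374% of the reads of SCD.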

How the data were processed

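RNA isolated with an RNeasy kit was polyA-selected, and TruSeq libraries were sequenced on a NovaSeq, per the labels' protocols. The authors deposited raw read counts per Ensembl gene ID, 1 column per library, and a comparison table of log2 fold changes and other statistics. Per the submitters' processing notes, HISAT2, featureCounts and limma were used, and their versions, the genome build, the annotation, the strand setting and the handling of multi-mapped reads were not given in the sources used here. Only the first 15273 rows of the authors' deposited table, which hold the comparison, were used, since later rows repeat counts.

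From the counts, all genes were fitted with edgeR 4.0.16 in R 4.3.3 (TMM scaling, the default expression filter, quasi-likelihood F-test, editor minus GFP, Benjamini-Hochberg adjustment over all 20511 genes tested, threshold 0.05). Each SE is the log2 fold change over the root of F, and intervals are 95%. CPM are scaled by TMM, and 2 prior counts entered the log2 CPM. Symbols were found for 42343 of 62700 IDs. Exon lengths, overlaps, neighbouring genes and gene coordinates come from GENCODE release 29 on GRCh38, which need not be the authors' annotation. Promoters come from RefSeq, and for a gene with several windows the one with most CCAAT matches was printed. The fits were tested on simulated counts with 3 libraries a group. There edgeR called 6.98% of genes changed by a log2 of 0.5 and 66.1% of those changed by 1, and 7 of its 141 calls were false. Changes of 0.5 or less would thus mostly go uncalled. The simulated libraries of a group were drawn independently, whereas editor libraries 2 and 3 were close to each other. The changed genes were picked at random, and the median SE over all genes tested was 0.17, against 0.38 for HMGCS1 and 0.43 for IDI1. The simulated shares therefore need not hold for these data or for such members.

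The titles call the replicates biological, but no source states separate cultures. The p-values weigh the difference between groups only against the spread of these libraries, and that spread may be technical. The members, lists and alternatives were chosen with earlier results of these data known. Library values are given for the 4 members with the smallest p in each group of genes, for INSIG1, SREBF1, SREBF2, HMGCS1, SQLE, FASN and SCD, and the 2 genes with the smallest p of each other list are named, except 1 that is not reported here. The library values of IDI1, MSMO1, TM7SF2, LSS and ACACA were picked once seen. The alternatives tried were DESeq2 1.42.0, voom (limma 3.58.1), RLE scaling or library totals in place of TMM, no low-count filter or a minimum of 50 reads in 3 libraries, a replicate block, an adjusted p of 0.01, each library left out, editor libraries 2 and 3 summed as 1, and, added after seeing the data, ACACA left out.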

Additional observations from a re-analysis of the deposited data

How the results depend on the processing

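With 3 libraries a group and editor libraries on both sides of the GFP range, the direction of many members was not fixed. The count of members called, 0 in each direction, became 1 higher and 1 lower with no low-count filter, and ranged from 0 to 1 in each direction over the libraries left out. It stayed at 0 with RLE scaling, library totals, at least 50 reads, DESeq2, limma-voom and the replicate block. Deviations of same-numbered libraries from their group means had r = -0.05, 0.17 and -0.24 over all genes tested. These values cannot decide whether the numbers pair the libraries, since editor libraries 2 and 3 were close to each other. With the replicate block the sterol median was -0.15. The median of the sterol enzymes ranged from -0.35 to -0.03, that of the regulators from -0.28 to -0.07 and that of the fatty acid enzymes from -0.0752 to 0.0624 over the libraries left out. Over the same settings the log2 fold change changed sign for HMGCS1 (-0.84 to 0.11), MVK (-0.23 to 0.0848), IDI1 (-0.94 to 0.13), GGPS1 (-0.21 to 0.0242), NSDHL (-0.15 to 0.0286), EBP (-0.22 to 0.12), SC5D (-0.12 to 0.23), INSIG1 (-0.61 to 0.21), FASN (-0.0313 to 0.15), ELOVL6 (-0.0139 to 0.32), FADS1 (-0.0025 to 0.13) and ACSL3 (-0.12 to 0.0758). With editor libraries 2 and 3 summed it was 0.10 for HMGCS1, 0.12 for IDI1, 0.0203 for GGPS1, 0.024 for EBP and 0.21 for INSIG1. It was 0.0158 for INSIG1 with library totals, -0.0103 for LSS and -0.038 for ACSL3 with no filter, and -0.0053 for ACSL3 with RLE scaling and with DESeq2. The cause of these changes was not tested. Of the values of single members under alternatives, 440 kept their direction and their side of the threshold, 32 changed sign and 4 came to pass. With no filter the fatty acid median was -0.0118, and with ACACA left out, chosen after seeing the data, 0.0153. At an adjusted p of 0.01 the fit is the same, so 0 calls at 0.05 fixed 0 calls there. Over all genes DESeq2 called 47 higher and 32 lower against 5 and 0, and the fit without editor library 1 called 159 and 54, the fit with no filter 178 and 129, limma-voom 3 and 0, and the replicate block 1 and 0. Library totals moved the median of all genes to 0.08.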
